A study of Mus musculus with 2 samples.

Results

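The genes described here are developmental transcription factors of the Pax, Lhx, Isl, Irx, Dlx, Msx, Nkx, Sox, Tbx and Gata families and the Six-family homeobox genes, as named on a whole-genome mouse array. Members were chosen by gene name alone: the prefixes Pax-, Lhx-, Six-, Tbx-, Sox-, Dlx-, Msx-, Irx- or Nkx- before a digit, with Gata4, Gata5, Gata6, Isl1 and Isl2, and without Pax5, the B-cell factor of its family. The rule found 94 of the 34787 genes on the array, read by 129 of its 55680 probes. Of the 94 names, 6 are antisense, opposite-strand or overlapping transcripts that carry the name of a neighbouring factor.

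The RNA came from LSK cells, the fraction of bone marrow that lacks lineage markers and carries Sca-1 and c-Kit and that holds haematopoietic stem and progenitor cells. The cells were C57BL/6 with the genotype Tet2KD/KD; Ezh2delta/delta, are labelled as cells of a myelodysplastic syndrome (MDS), and were sorted from secondary transplant recipients 10 weeks after transplantation. There was 1 array for cells taken 7 weeks after decitabine (DAC, a nucleoside analogue that inhibits DNA methyltransferases) and 1 array for cells taken 7 weeks after phosphate-buffered saline (PBS), the control. Both groups carried the same Tet2 and Ezh2 alleles, so neither array shows these genes with an intact Ezh2. The dose of DAC, the number of animals behind each RNA and the type of Tet2 allele are not given in the sources used here. With 1 array per group no difference could be tested, and all comparisons below are between those 2 RNA samples.

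Polycomb complexes keep developmental genes silent in cell types that do not use them. EZH2 is the methyltransferase of Polycomb repressive complex 2 and methylates histone H3, and EZH1 is its paralogue. In many tissues the typical targets are homeobox, paired-box, T-box, Sox and Gata factors that specify brain, limb, heart, kidney or gut, and their promoters are often rich in CpG dinucleotides. In blood progenitors most of these factors have no known role, although Sox4, Sox6 and Tbx21 act in blood lineages.

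The array reads each gene through 60-base probes, and some of their sequences are given here. A stretch of at least 16 bases that also occurs in at least 2 probes of other genes is held by 5.34% of all probes. Among the member probes a close share, 7 of 129, hold such a stretch, and its part in their signals was not tested. They include the brightest member probes, those of Gata5, Lhx6 and Sox5, shown here 5′ to 3′ with the shared bases in capitals:
Gata5, A_55_P2046867: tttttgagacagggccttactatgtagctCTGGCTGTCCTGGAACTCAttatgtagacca
Lhx6, A_55_P2005903: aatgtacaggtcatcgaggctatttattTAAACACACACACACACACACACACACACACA
Sox5, A_55_P2156905: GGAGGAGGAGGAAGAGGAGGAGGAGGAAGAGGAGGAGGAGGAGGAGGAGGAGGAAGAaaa
For Lhx6 and Sox5 the array carries other probes with no such stretch, which were dim, and they are given for comparison:
Lhx6, A_55_P2094149: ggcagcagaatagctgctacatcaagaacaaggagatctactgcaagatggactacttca
Lhx6, A_55_P2094158: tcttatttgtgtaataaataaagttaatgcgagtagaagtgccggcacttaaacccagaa
Sox5, A_51_P500318: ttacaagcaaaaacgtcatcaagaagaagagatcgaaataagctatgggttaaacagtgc
Sox5, A_55_P2088765: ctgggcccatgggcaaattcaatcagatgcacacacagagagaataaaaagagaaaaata
The probes of the members that differed most between the arrays, or that were seen on 1 array only with the larger bounds, hold no such shared stretch and follow in lower case:
Tbx21, A_51_P501364: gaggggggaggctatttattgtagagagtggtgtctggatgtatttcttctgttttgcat
Lhx2, A_51_P257419: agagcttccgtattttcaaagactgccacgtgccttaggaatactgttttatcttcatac
Pax6os1, A_66_P122160: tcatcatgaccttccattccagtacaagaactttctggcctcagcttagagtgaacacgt
Six5, A_51_P219385: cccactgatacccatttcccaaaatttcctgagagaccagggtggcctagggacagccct
Sox6, A_52_P475356: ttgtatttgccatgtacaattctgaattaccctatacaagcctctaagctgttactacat
Tbx15, A_52_P232802: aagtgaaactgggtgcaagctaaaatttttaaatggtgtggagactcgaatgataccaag
Isl1, A_52_P337246: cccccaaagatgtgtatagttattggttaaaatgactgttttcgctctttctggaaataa

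Most of these factors were not seen on either array. A probe counted as detected where the scanner software called its spot well above background, and a gene was read through its brightest probe. On the DAC array 40 of 94 members (42.6%) were detected, where 61.9% of all genes were. On the PBS array 34 members (36.2%) were detected, against 55.3% of all genes. There were 31 members (33.0%) detected on both arrays, against 52.4% of all genes, and 51 members (54.3%) on neither, against 35% of all genes. The rest were 9 members seen on the DAC array only, where 9.43% of all genes were, and 3 seen on the PBS array only, where 2.81% were.

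Detection differed between the families, each of a few genes. For Pax, 3 of 9 genes were detected with DAC and 1 with PBS. The Lhx family had 3 of 8 on each array, the Irx family 2 of 6 on each, the Msx family 2 of 3 on each and the Gata group 1 of 3 on each. Of the Six-family genes 4 of 7 were detected with DAC and 3 with PBS, and the Dlx family had 4 of 9 on each. The large Nkx and Sox families had 8 of 14 and 9 of 20 on the DAC array, and 6 and 8 on the PBS array. Among the Tbx genes 4 of 13 were detected with DAC and 3 with PBS, and of the pair Isl1 and Isl2 only Isl1 was detected, on the PBS array.

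The members detected on neither array include factors that define other tissues. Among them were Pax1, Pax3, Pax4, Pax6, Pax7 and Pax8, which act in somites, neural crest, pancreas, eye, muscle and thyroid. Gata4 and Gata6, heart and gut endoderm factors, were not detected, nor were Sox2, Sox9 and Sox17, which mark pluripotent or neural cells, cartilage and endoderm. Nkx2-1 of lung and thyroid, Nkx2-5 of heart and Tbx5 of heart and forelimb were also undetected. Over 80 member probes undetected on both arrays, 48 with DAC and 52 with PBS were no brighter than the 95th percentile of the array's 308 negative control spots.

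The arrays themselves differed in brightness, in the same direction as the detection counts. The 75th percentile of all spots was a processed intensity of 217 with DAC and 143 with PBS, and 56.8% and 48.5% of all probes were detected. The part of this in the members' own 40 and 34 was not tested. Both arrays lay on 1 slide and no spot was saturated. With the scanner's laxer call, positive and significant above background, 64.9% of members were detected with DAC and 63.8% with PBS. Over probes this call took 59.7% and 58.1% of member probes, against 78.9% and 72.2% of all probes.

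Detection followed the base composition of the probe. Member probes and all probes had the same median G+C content, 43.3%. Among member probes of at most 45% G+C, 21 of 94 (22.3%) were detected with DAC and 16 (17.0%) with PBS, against 52.0% and 43.7% of all probes in that range. In the lowest range, at most 35% G+C, 2 of 35 member probes (5.71%) were detected with DAC and 1 (2.86%) with PBS, against 47.5% and 40.8% of all probes. Above 50% G+C the shares were close to those of all probes: 22 of 29 member probes (75.9%) with DAC and 19 (65.5%) with PBS, against 78.6% and 71.0%. So the lower detection of these factors was seen in the A+T-rich probes, and G+C-rich probes were mostly called for members and other genes alike.

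**Figure D1:**
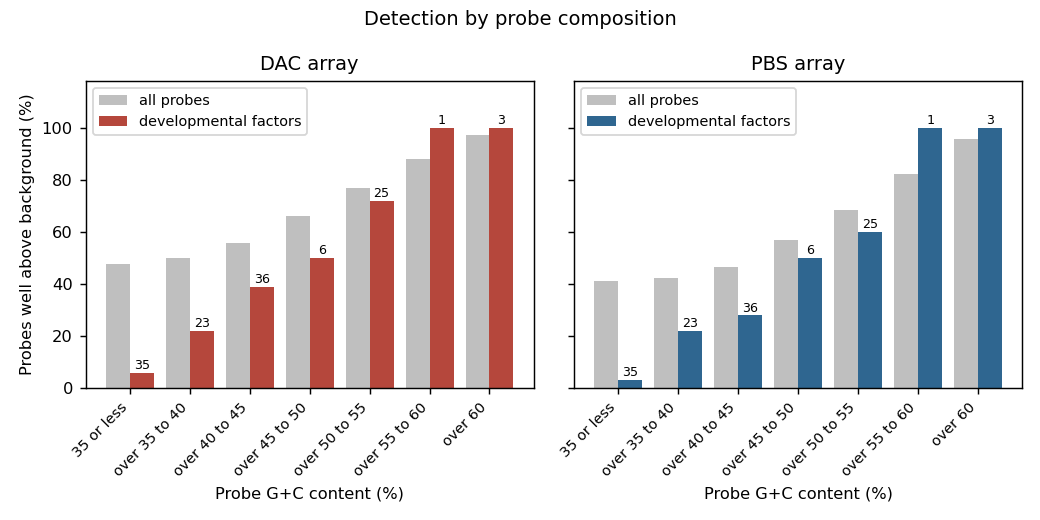
Share of probes well above background (%, vertical axis) by probe G+C content (%, horizontal axis), for all probes in grey and for probes of the developmental factors in colour, with the DAC array on the left and the PBS array on the right. Numbers over the bars are member probes per range. At 35% G+C or less, 5.71% and 2.86% of the 35 member probes were called against 47.5% and 40.8% of all probes, while between 50% and 55% the shares were 72% and 60% against 76.7% and 68.5%.

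The same gene was often called by one of its probes and not by another. Of the 26 members with several probes, 3 had all probes called on at least 1 array, 14 had some called and 9 had none. In 12 of those 14 genes the called probes had on average more G+C than the uncalled ones, in Six3 it had less, and in Pax9 they were equal. Sox1, a neural plate factor, was called by a probe of 73.3% G+C and not by a probe of 43.3% G+C. Dlx1, a factor of forebrain interneurons, was called by a probe of 73.3% G+C and not by a probe of 41.7% G+C. A signal from a single G+C-rich probe is therefore not matched by the other probe of the same gene in these cases, and which of them follows the RNA was not tested.

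The brightest member signals came from probes of repeated sequence. The Gata5 probe read 45828 with DAC and 38149 with PBS in processed intensity, and 19 of its bases recur in 3 probes of other genes, all detected on both arrays. Gata5 is a factor of heart and endoderm, and no other probe on the array reads it. The Lhx6 probe with the shared stretch, which is an alternation of C and A, read 37602 and 42663, and 32 of its bases recur in 38 probes of other genes, all detected on both arrays. The other Lhx6 probes read 28.9 and 4.12, and 5.94 and 5.63, of which only the first value was called. Lhx6 specifies cortical interneurons. The purine-only Sox5 probe read 67791 and 53137, and 57 of its bases recur in 34 probes of other genes, 32 of them detected on both arrays. The other Sox5 probes read 12.7 and 5.46, and 12.7 and 4.41, none of them called. The high signals under these 3 gene names were therefore not shared by the other probes of Lhx6 and Sox5, and could not be checked for Gata5.

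All later values are scaled: log2 of the processed intensity minus the 75th percentile of that array over the 25404 probes detected on both arrays, so that 0 is a bright probe and -5 is near the limit of detection. The dimmest called probe lay at -5.18 on the DAC array and at -4.93 on the PBS array. A difference is the DAC value minus the PBS value. Because probes differ in how they bind, a scaled signal is compared only with the same probe on the other array. The only error that could be measured was between repeated spots of a probe: the SD of a log2 difference was 0.28 for called signals under -3, 0.14 between -3 and 0, and 0.08 for signals of 0 or more. It covers spotting and scanning, not animals or labelling.

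Among the 31 members measured on both arrays, 28 lay within 2-fold of each other. Six5 was at least 2-fold higher on the DAC array, where 10.0% of all measured genes were, and Lhx2 and Tbx21 were at least 2-fold lower, where 6.84% were. Together 9.68% of the measured members passed 2-fold, against 16.9% of the 18211 genes measured on both arrays. The median difference of the members was -0.05 and that of all measured genes 0.02. Above 0 were 14 members (45.2%), where 51.4% of all measured genes were, and 17 were below. The sign of 15 of the 31 changed under some of 9 alternatives in processing. These counts cover only the 31 detected members and say nothing of the other 63. The split moved with the scaling: 0 higher and 3 lower when the 75th percentile was taken over all probes or the median was used, 0 and 5 with quantile normalization, 0 and 4 with cyclic loess.

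**Figure D2:**
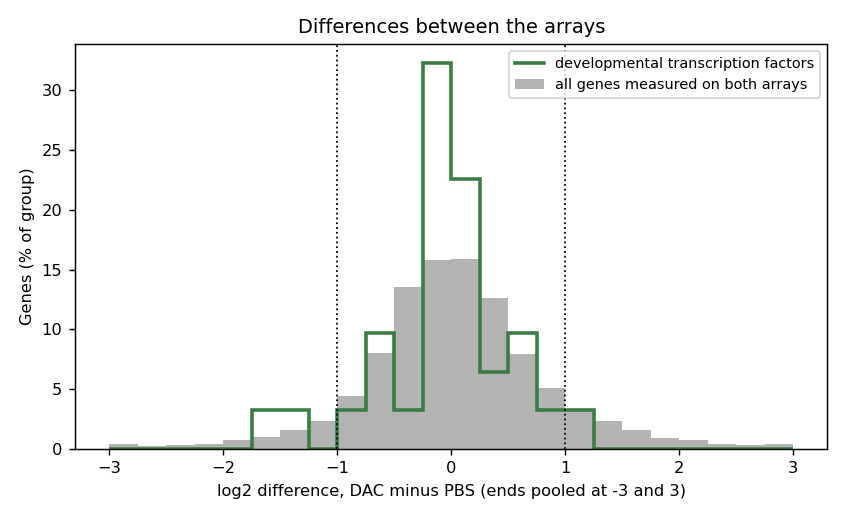
Share of genes (%, vertical axis) by log2 difference, DAC minus PBS (horizontal axis), for the 31 measured developmental factors (green line) and all 18211 genes measured on both arrays (grey bars). Dotted lines mark 2-fold. Most of the factors lie between the dotted lines, with Six5 above 1 and Lhx2 and Tbx21 below -1.

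**Figure D3:**
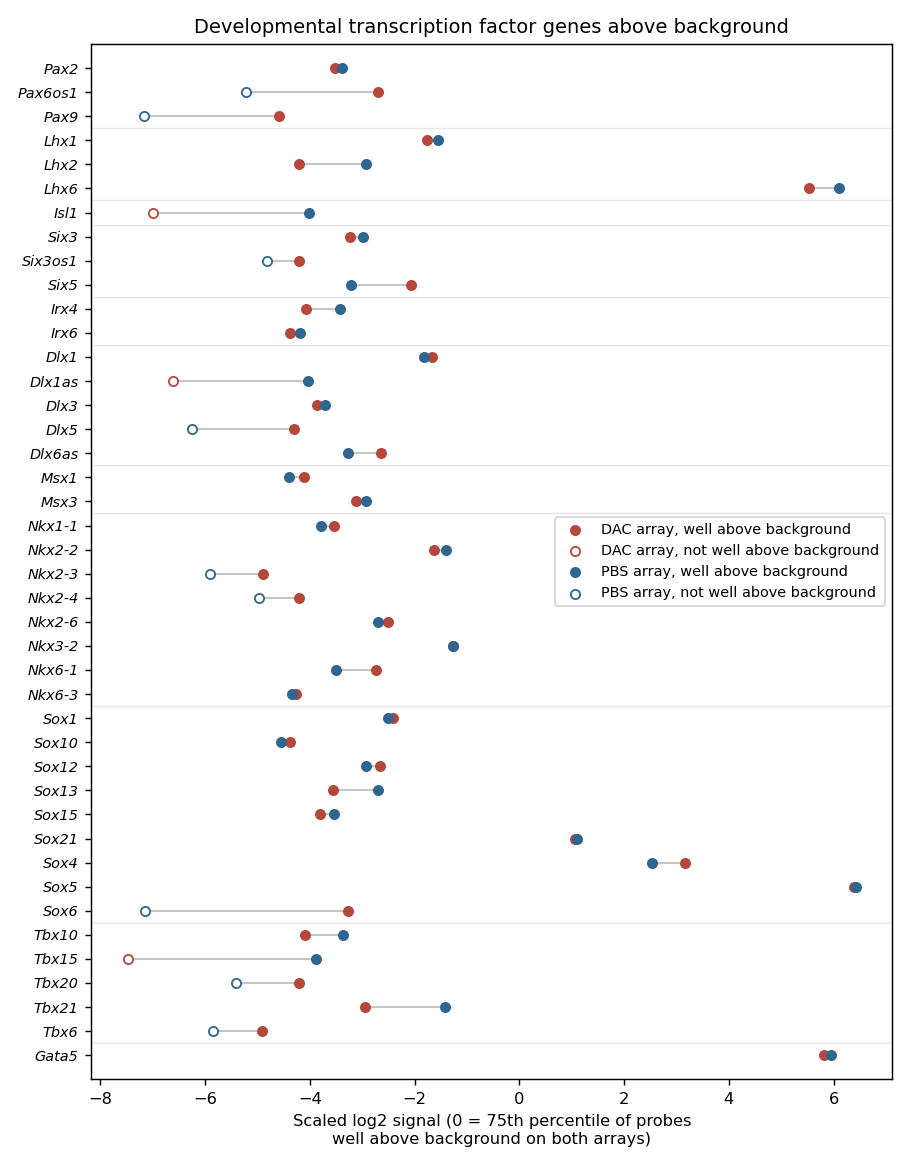
Scaled log2 signal (horizontal axis) of 42 of the 43 members detected on at least 1 array, grouped by family, with the DAC array in red and the PBS array in blue. Open circles are values not well above background, which are no measured levels. Most filled circles lie between -5 and -1 and close to their partner, and the points beyond 5 are the repeat-bearing probes of Lhx6, Sox5 and Gata5.

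Tbx21 gave the largest measured difference among the members. It encodes T-bet, the T-box factor of type 1 helper T cells and natural killer cells, and its probe lies at 96959417 to 96959476 on chromosome 11 (mm9). The processed intensity was 105 with DAC and 232 with PBS, which is -2.95 and -1.42 after scaling. The difference of -1.53, a 2.89-fold lower signal on the DAC array, was larger than the repeat-spot SD of 0.14, and it stayed past 2-fold under all scalings and background corrections tried, from -1.84 to -1.11. Markers of T and natural killer cells were present too: 6 of 14 were measured on both arrays, 4 only with DAC and 2 only with PBS. The linear signal summed over all 14, called or not, was 9.62 with DAC and 9.27 with PBS. Nkg7 alone (2.88 and 2.92 on the log2 scale) made up most of that sum. Of the 6 measured, 4 were higher and 2 lower with DAC, with Il7r at 1.37 and Gzmb at -1.47 past 2-fold. Cd3g and Cd8a were called on neither array, Cd3d and Ncr1 only with PBS, and Il2rb, Klrd1, Klrb1c and Gzma only with DAC. Their part in the Tbx21 difference was not tested. In sorted cells measured in bulk, fewer cells of a type and less RNA per cell cannot be told apart.

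The other T-box genes were dim or not called. Tbx10 read -4.10 with DAC and -3.37 with PBS, a difference of -0.74, against a repeat-spot SD of 0.28. Tbx15, a factor of limb and skin patterning, was called on the PBS array at -3.88 and not on the DAC array, where its spot read -7.48, among the negative controls. The signal was lower with DAC by at least 2.46-fold, taking the dimmest called probe of that array as the bound, and the log2 bound of -1.30 was -0.73 without background subtraction. Tbx20 of the heart was called on the DAC array only, at -4.21, at least 1.65-fold higher, but its log2 bound of 0.72 was 0.04 with normexp correction, which leaves no size. Tbx6, which acts in presomitic mesoderm, was called on the DAC array only with a bound of 1.02-fold, so no size can be given. The T-box genes thus held both the largest measured difference and calls on single arrays in either direction.

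Among the LIM-homeobox genes, all 3 measured members were lower on the DAC array, except that Lhx6 was higher as the mean over its probes. Lhx2, which patterns eye, forebrain and limb, read 43.8 with DAC and 80.8 with PBS in processed intensity, or -4.22 and -2.94. Its difference of -1.28, 2.43-fold lower, was larger than the repeat-spot SD of 0.28, but it fell below 2-fold with normexp background correction (-0.78) and without background subtraction (-0.75). Lhx1, a factor of kidney and head organizer, read -1.77 and -1.54, a difference of -0.22. The repeat-bearing Lhx6 probe differed by -0.58, and the mean over the Lhx6 probes by 0.51. The probe of Lhx2 lies at 38224933 to 38224992 on chromosome 2.

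Isl1 was seen on the PBS array only, through a probe that is printed in 10 spots. ISL1 is the LIM-homeodomain factor of motor neurons, cardiac progenitors and pancreatic islets, and the probe lies at 117088774 to 117088833 on chromosome 13. On the PBS array all 10 spots were called, with scaled signals from -4.31 to -3.74, a median of -4.08 and a mean of -4.02 ± 0.19 (SD over 10 spots). On the DAC array 0 of 10 spots were called, with signals from -7.44 to -6.22, a median of -7.18 and a mean of -6.99 ± 0.48. The spots of the arrays did not overlap, and the signal was lower with DAC by at least 2.22-fold, with a log2 bound of -1.15 that was -0.63 without background subtraction. Spots repeat the same labelled RNA, so the separation concerns these 2 RNA samples and not their treatments.

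Other members printed in 10 spots were at background on both arrays. The probes of Nkx2-1, Pax1, Pax3 and Sox9 had 0 called spots on either array, and their spots overlapped between the arrays after 2 outlying spots each of Nkx2-1 on the DAC array and of Pax1 on the PBS array were left out. For Pax3, a neural crest factor, the signals ran from -7.48 to -6.35 on the DAC array and from -7.22 to -6.48 on the PBS array. For Sox9, the cartilage factor, they ran from -7.52 to -6.75 and from -7.26 to -6.45. None of these 4 genes thus had a measured level, even with 10 spots.

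**Figure D4:**
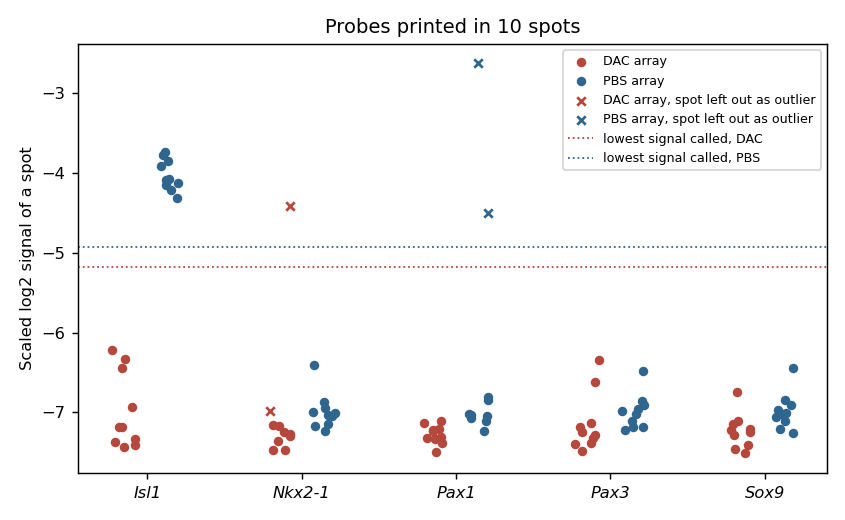
Scaled log2 signal (vertical axis) of each spot for the 5 member probes printed in 10 spots, with the DAC array in red and the PBS array in blue. Crosses are spots left out as outliers and dotted lines are the dimmest called probe of each array. Only the Isl1 spots of the PBS array, from -4.31 to -3.74, lie above the lines, apart from outliers.

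In the Six-family genes the differences went both ways. Six5, whose gene lies beside Dmpk, read 194 with DAC and 67.0 with PBS in processed intensity, or -2.06 and -3.21. The difference of 1.14, 2.21-fold higher on the DAC array, was larger than the repeat-spot SD of 0.14. It was below 2-fold, from 0.63 to 0.98, under every other scaling and background correction tried. Six3 of the forebrain and eye field read -3.23 and -2.98, a difference of -0.25, which is within the repeat-spot SD of 0.28.

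The Sox genes include members with a place in blood. Sox4, used by lymphoid progenitors, was measured by 3 probes: its brightest probe read 3.16 with DAC and 2.53 with PBS, a difference of 0.63 against a repeat-spot SD of 0.08. Its other probes differed by 0.08 and 0.30, so with the scaling used here the 3 probes of 1 gene had the same sign and unequal sizes. The difference of 0.08 is smaller than the shifts of all genes under the other scalings, so its sign depends on the scaling. Sox12, its relative in the SoxC group, read -2.67 and -2.92, a difference of 0.25.

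Sox6, a SoxD factor of cartilage and red-cell maturation, was called on the DAC array only. It read -3.27 there and -7.14 on the PBS array, among the negative controls, which is at least 3.15-fold higher on the DAC array. On the log2 scale this bound of 1.66 was 0.50 with normexp correction and without background subtraction. Of 12 erythroid markers 9 were measured on both arrays. The linear signal summed over all 12 was 8.43 with DAC and 8.25 with PBS, led by Car2 (2.10 and 2.06 on the log2 scale). Of those 9, 4 were higher and 5 lower with DAC, and Car1 alone passed 2-fold (1.82). Epor was called only with DAC and Alas2 only with PBS, and their part in the Sox6 result was not tested. Sox13, another SoxD gene, went the other way, with -3.55 and -2.69 and a difference of -0.86.

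Several other Sox genes differed little between the arrays. Sox1 read -2.41 and -2.51, a difference of 0.11, and Sox10 of the neural crest read -4.39 and -4.54, a difference of 0.15. Sox15 read -3.81 and -3.55, a difference of -0.26. All 3 lie within the repeat-spot SD for their signal. Sox21, which acts in neural progenitors, read 1.06 and 1.10 with its brighter probe, a difference of -0.04, while its other probe was called on neither array. The repeat-bearing Sox5 probe differed by -0.05, and the mean over the Sox5 probes by 0.64.

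Through their brightest probes, none of the 6 measured Nkx homeobox genes passed 2-fold. Nkx6-1, a factor of beta cells and motor neurons, read -2.74 and -3.49, a difference of 0.75 against a repeat-spot SD of 0.28. Nkx1-1 read -3.53 and -3.78, a difference of 0.25, and its other probe differed by 0.46. That other probe holds a shared stretch, with 36 of its bases recurring in 4 probes of other genes, 2 of them detected on both arrays. Nkx2-6 of the pharyngeal arches read -2.50 and -2.70, Nkx3-2 of cartilage -1.26 and -1.28, and Nkx6-3 of the stomach -4.26 and -4.33. These differences, 0.20, 0.02 and 0.07, were small. Nkx2-2, of the ventral neural tube and pancreas, read -1.62 and -1.39, a difference of -0.23, and its other probe was called on neither array. As the mean over both of its probes, Nkx2-2 differed by -1.31, which is past 2-fold. Nkx2-4 was called on the DAC array only, at -4.21, with a signal at least 1.65-fold higher, and Nkx2-3 likewise with a bound of 1.03-fold. The Nkx2-4 probe is another of those with a shared stretch, 19 of its bases recurring in 3 probes of other genes, all detected on both arrays, and its bound disappeared with normexp correction and without background subtraction.

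The remaining homeobox and paired-box genes differed little where they were measured. Dlx1 read -1.66 and -1.82, a difference of 0.15, and Dlx3, a factor of skin and placenta, read -3.87 and -3.71, a difference of -0.16. Dlx5 of the developing skeleton was called on the DAC array only, at -4.30, at least 1.55-fold higher, a bound that disappeared with normexp correction and without background subtraction. Msx1 of teeth and palate read -4.11 and -4.41, a difference of 0.30, and Msx3 of the dorsal neural tube read -3.12 and -2.93, a difference of -0.19.

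For the Irx and Pax families the measured members were lower on the DAC array, except that Pax2 was 0.09 higher as the mean over its probes. Irx4, a factor of the heart ventricle, read -4.07 and -3.42, a difference of -0.65, and Irx6 read -4.37 and -4.18, a difference of -0.19. Pax2, of kidney and the midbrain-hindbrain boundary, read -3.52 and -3.39, a difference of -0.13, and its other probe detected on both arrays differed by 0.02. Only the Irx4 difference exceeded the repeat-spot SD of 0.28. Pax9 was called on the DAC array only, with a bound of 1.26-fold that disappeared with quantile normalization, with normexp correction and without background subtraction.

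Some antisense transcripts of these loci were detected where the factor beside them was not. Of 6 such names, 3 (50%) were detected with DAC and 2 (33.3%) with PBS, against 61.9% and 55.3% of all genes. On both arrays 1 (16.7%) was detected, against 52.4% of all genes. Pax6os1, transcribed opposite to Pax6, read -2.70 on the DAC array and was not called on the PBS array, at least 4.68-fold higher, while Pax6 itself was called on neither array. The log2 bound of 2.23 was 0.80 with normexp correction and 0.79 without background subtraction. Dlx1as was called on the PBS array only, at -4.04, lower with DAC by at least 2.20-fold, while Dlx1 differed by 0.15. The log2 bound of -1.14 for Dlx1as was -0.65 without background subtraction. Six3os1 was called on the DAC array only, by 1 of its 3 probes, at -4.20, at least 1.54-fold higher, while Six3 differed by -0.25. The log2 bound of 0.62 for Six3os1 was the highest of the settings tried, and it disappeared without background subtraction. Dlx6as read -2.64 and -3.26, a difference of 0.62, and Dlx6 was called on neither array. Dlx6os1, also named after Dlx6, and Sox2ot were called on neither array. So Dlx1 and Six3 lay within 2-fold, and Pax6 and Dlx6 gave no measured level. Without the antisense names, 30 of 88 members were measured and 1 was higher and 2 were lower by 2-fold.

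The promoters of these genes were mostly CpG-rich. Promoter windows, 250 bases before to 50 after the start site, were matched for 65 of 94 members in RefSeq (GRCm38.p6). A window was called CpG-rich where its CpG count was over 0.6 of that expected from its C and G content and its G+C content over 50%. By this measure 45 of 65 members (69.2%) were CpG-rich, against 49.7% of all array genes with a window and 67.0% of genes measured on both arrays. The median ratio of observed to expected CpG was 0.69 for members, 0.59 for array genes and 0.73 for measured genes.

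The share of genes measured was set beside the CpG content of their windows, with no test. Of 45 CpG-rich members 19 (42.2%) were measured on both arrays, where 6344 of 8634 CpG-rich array genes (73.5%) were. Of 20 members without a CpG-rich window 5 (25%) were measured, where 3126 of 8727 array genes (35.8%) were. Counted over either array, 24 of 33 detected members (72.7%) and 21 of 32 undetected members (65.6%) had a CpG-rich window. Isl1, seen on the PBS array only, has 37 CpG in its window and a ratio of 1.05, and Tbx10, measured on both arrays, has 4 and a ratio of 0.14. The windows show that range, with each CG in capitals:
Isl1, chr13:116309639-116309938, minus strand: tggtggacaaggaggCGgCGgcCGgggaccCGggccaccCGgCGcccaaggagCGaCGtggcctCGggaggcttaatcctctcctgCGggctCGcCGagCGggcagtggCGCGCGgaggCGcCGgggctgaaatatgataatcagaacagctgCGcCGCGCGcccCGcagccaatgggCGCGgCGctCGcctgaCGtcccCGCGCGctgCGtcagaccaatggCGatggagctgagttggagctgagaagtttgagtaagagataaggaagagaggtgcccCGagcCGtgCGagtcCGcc
Tbx10, chr19:3992502-3992801, plus strand: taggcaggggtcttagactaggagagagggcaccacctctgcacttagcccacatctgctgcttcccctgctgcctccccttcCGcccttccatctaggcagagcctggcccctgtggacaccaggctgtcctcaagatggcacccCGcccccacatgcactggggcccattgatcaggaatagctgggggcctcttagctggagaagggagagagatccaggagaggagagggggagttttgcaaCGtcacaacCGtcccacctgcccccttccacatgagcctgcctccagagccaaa
Methylation of these windows was not measured here.

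**Figure D5:**
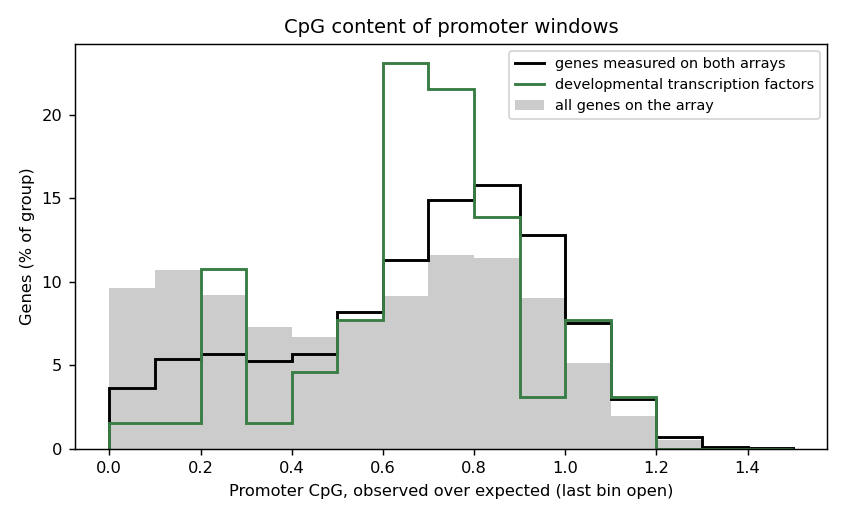
Share of genes (%, vertical axis) by the ratio of observed to expected CpG in the promoter window (horizontal axis), for the 65 matched developmental factors (green line), genes measured on both arrays (black line) and all array genes with a window (grey). The factors peak between 0.6 and 0.8, and 69.2% of them had a CpG-rich window.

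A wider list of 116 other developmental factors, such as forkhead, Zic and basic helix-loop-helix genes, was also detected in part. On the DAC array 32 (27.6%) were detected, on the PBS array 33 (28.4%), and 24 (20.7%) on both. Over all genes these shares were 61.9%, 55.3% and 52.4%. None of the 24 measured genes passed 2-fold, where 16.9% of all measured genes did. Above 0 were 19 of the 24 (79.2%), where 51.4% of all measured genes were, and 5 were below. The median difference was 0.22, against 0.02 for all measured genes. Of the 116, 8 were called on the DAC array alone and 9 on the PBS array alone. Of the 94 members 9 and 3 were, and of all genes 9.43% and 2.81%. Of those called with PBS alone, Meox1 of the somites was lower with DAC by at least 3.97-fold and Tfap2c by at least 2.43-fold. Onecut1, a liver and pancreas factor, was at least 3.25-fold higher on the DAC array.

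Genes of a Polycomb list, in contrast, were mostly detected in these cells. Besides subunits of the complexes the list holds Kdm6a and Kdm6b, which encode histone demethylases. Of the 34 listed genes 29 (85.3%) were measured on both arrays, against 52.4% of all genes. Of the 29, 17.2% passed 2-fold, against 16.9% of all measured genes. There were 5 higher on the DAC array and none lower, where 10.0% and 6.84% of all measured genes were. The median difference was 0.13. Among the 29 measured on both arrays, the largest differences were those of Cbx2 (2.08), Yaf2 (1.79), Kdm2b (1.56) and Cbx6 (1.24), components of Polycomb repressive complex 1. Called on 1 array only were 3 with DAC and 0 with PBS, where 9.43% and 2.81% of all genes were. The Ezh2 probe read -0.34 and 0.20. Where it lies relative to the deleted part is not given in the sources used here, so it does not check the genotype.

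Markers of the labelled cell type were present. All 18 LSK and progenitor markers were measured on both arrays, among them Kit (2.64 and 2.52), Ly6a, which encodes Sca-1 (0.67 and 0.60), Cd34 (3.48 and 3.78), Flt3 (0.79 and 1.03) and Mpo (4.35 and 4.18). Of stromal markers, 5 of 13 were measured on both arrays. The linear signals summed over all 13 were 2.33 with DAC and 2.47 with PBS, led by Pdgfrb (0.52 and 0.25). Lepr, Col1a1, Pdgfra, Dcn, Lum and Acta2 were called on neither. For endothelium 8 of 12 markers were measured on both arrays, with sums of 7.22 and 7.42 led by Egfl7 (2.25 and 2.38). Pecam1 differed by 2.95 and Emcn by 1.56, Robo4 by -1.18, Cldn5 was called only with DAC (at least 2.35-fold), and Cdh5 and Stab2 were called on neither array. Of 12 monocyte and macrophage markers 11 were detected with DAC and 4 with PBS. Their sums were 7.09 and 6.58, led by the Csf1r probe (2.39 and 2.37). There were 7 called only with DAC, with bounds up to 4.97-fold for Adgre1, and 0 only with PBS. Of the 4 measured on both arrays, 3 were higher with DAC and 1 lower. The neutrophil markers summed to 56.4 and 81.4, led by the Itgam probe (5.64 and 6.19), with 1 of 9 measured at least 2-fold higher with DAC and 2 lower. The megakaryocyte markers summed to 3.66 and 2.38, with 3 of 7 at least 2-fold higher. The part of such cells in the members' signals was not tested.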

How the data were processed

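Total RNA was labelled with Cy3 and hybridised to 2 Agilent 1-colour arrays, per the labels' protocols. Per the file headers, the deposited intensity values came from Agilent Feature Extraction 10.7.3.1, which subtracted background, detrended the signal and gave surrogates to spots not above background. Nothing was normalized between the arrays. The authors' deposited value table holds log2 values with an unstated baseline. Its differences between arrays followed those of the scanner files with a slope of 1.00 and an offset of -0.60 over 55680 probes, and they served as an alternative.

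Spots of a probe were averaged without outliers, and 1 of 55681 probes was left out. Intensities were scaled to the 75th percentile over probes well above background on both arrays (45.6% of probes), then log2-transformed. A probe printed in several spots was called where at least 50% of them were. The brightest probe stood for a gene. A gene called on 1 array was given a bound against either its own signal or the dimmest called signal of the dim array, whichever was brighter. Probes were named by accession (26761), symbol (3819) or synonym (639) through a RefSeq table, and 24461 kept the file's name. Members measured on both arrays were named, with those on 1 array whose bound was at least 1.5-fold, and of the wider lists at most 4 genes a direction past 2-fold; the others named without a rule were chosen after their values were seen. Members and lists were chosen with earlier results of these data known. The steps were tested on simulated data. Python 3.11.15, pandas 2.3.3, R 4.3.3 and limma 3.58.1 were used. Alternatives covered scaling, background correction, detection call, filter, probe choice and threshold. Leaving out probes with shared stretches and keeping only probes of at most 45% G+C were alternatives chosen after seeing the data. Values of a few genes that these rules would name are not reported here, though the counts include them. Exon or UTR positions of the probes were not analysed here, and mm9 positions are those of the array files.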

Additional observations from a re-analysis of the deposited data

How the results depend on the processing

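No paired analysis was possible because each group has 1 array, and for the same reason no sample could be left out. The count of members at least 2-fold higher, 1 as reported (Six5), was 0 with the 75th percentile over all probes, median centring, quantile normalization, cyclic loess, spike-in scaling, normexp, no background subtraction, the authors' value table, genes at or above the median signal, probes of at most 45% G+C, or a 4-fold threshold. The count at least 2-fold lower, 2 as reported, was 5 with quantile normalization, 4 with loess and with spike-in scaling, and 1 with normexp and without background subtraction. It was 3 with the 75th percentile over all probes, median centring, the authors' value table or the mean over probes. Among the 7 members at or above the median signal, or at 4-fold, it was 0. With the positive and significant call, 52 members were measured, 7 higher and 6 lower (25%, against 23.1% of 25414 genes), 9 were on the PBS array only, and 64.9%, 63.8% and 55.3% were detected on the DAC array, the PBS array and both. With no filter all 94 entered, 10 higher and 12 lower. Those settings admit dim spots. With probes of at most 45% G+C, 25%, 19.7% and 17.1% of 76 members were detected. The members' median was -0.36 with spike-in scaling, which rested on 1 of 10 spike-in probes. Without the probes that share sequence, 40.2%, 33.7% and 30.4% of 92 members were detected, and 1 was higher and 2 were lower of 28. Other scalings moved the median of all measured genes from 0.02 to as low as -0.29, and member medians are read against it. The 75th percentile over all probes, median centring, spike-in scaling and the value table shift all genes by 1 constant each, and the members' median minus that of all genes stayed at -0.07. No member past 2-fold changed direction. Of the 31 measured members, 16 kept 1 sign under the reported setting and 9 alternatives, 5 of them higher and 11 lower with DAC. The other 15 changed sign. Where a cause is not named it was not tested. Signals near background limit most members: the SD of a difference between repeated uncalled spots was 0.59.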
